A study of Mus musculus with 11 samples.

Results

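Binding of 4 transcription factors was examined at the loci of 4 genes of interleukin-2 signalling: Il2ra, Il2rb, Stat5a and Stat5b. The members were every deposited binding position and Foxp3 peak inside 3 windows of mouse build mm9. The windows were fixed by coordinates and not by a limit on any measured value, but they were chosen with earlier results of these data known. The Il2ra window ran on chromosome 2 from 11550000 to 11630000 (80 kb), the Il2rb window on chromosome 15 from 78295000 to 78345000 (50 kb), and the window of Stat5a and Stat5b on chromosome 11 from 100630000 to 100760000 (130 kb). They held 7 of 2886 Foxp3 peaks and 374 of 1059098 positions of 5 other lists, of which 200 passed a limit of 0.01 on the deposited FDR (the expected share of false positions, a q-value). No mm9 gene annotation was used here, so positions are placed in windows and not in promoters, exons or introns.

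The data are chromatin immunoprecipitation followed by sequencing (ChIP-seq) on CD4 T cells sorted by a Foxp3 reporter (GFP) from lymph node and spleen of mice about 8 weeks old. Foxp3-positive regulatory T (Treg) cells gave the Foxp3 peaks, which the authors pooled from their replicates, and single libraries of Elf1, of Ets1 and of Cbfb. The CD4 T cells without Foxp3 (CD4 for short) gave a single Elf1 and a single Ets1 library. Strain, sex and genotype beyond the reporter are not given in the sources used here, and nothing says how many animals a library pooled. With 1 library per group no difference below has a replicate check, no p-value is given, and intervals cover counting error only. They take positions as independent, and are too narrow where neighbouring positions are not. The number of reads per library is unknown, so a missing position is not shown to be a missing factor.

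Interleukin-2 is bound by a receptor whose alpha chain, CD25, is the product of Il2ra and raises its affinity. The beta chain, CD122, is the product of Il2rb, is shared with interleukin-15, and signals together with the common gamma chain through Janus kinases. These phosphorylate the paralogues STAT5A and STAT5B, which then bind DNA as dimers. Treg cells carry high CD25, make little interleukin-2 themselves and depend on it, and STAT5 acts on the Foxp3 gene. Elf1 and Ets1 belong to the ETS family, which binds sites with the core GGAA. Cbfb is the partner of the Runx proteins and does not itself bind DNA.

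Sequence upstream of the members is shown first, since Elf1 and Ets1 were the factors with most positions here. RefSeq promoters (300 bases: 250 before and 50 from the start site, build GRCm38.p6, not mm9) were at hand for 3 of the 4 members: 1 start of Il2ra, 2 of Stat5a and 2 of Stat5b. Capitals mark each GGAA or its complement TTCC, and offset 0 is the start site. The 250 bases before the Il2ra start (plus strand, GRCm38.p6 chr2:11642542-11642791) held cores at offsets -200, -189 and -33.
Il2ra upstream: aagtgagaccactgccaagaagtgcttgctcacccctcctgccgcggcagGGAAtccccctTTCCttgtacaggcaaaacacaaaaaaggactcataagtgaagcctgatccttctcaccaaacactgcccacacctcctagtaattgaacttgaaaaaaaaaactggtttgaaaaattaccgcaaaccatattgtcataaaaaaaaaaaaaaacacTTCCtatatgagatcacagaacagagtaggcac

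Stat5b and Stat5a, which neighbour each other, had 1 start each with related sequence, printed because both carry a pair of ETS cores next to the start. A local alignment of the 2 promoters covered 102 columns with 82 identical (80.4%). The Stat5b stretch (minus strand, GRCm38.p6 chr11:100822563-100822664) ran from offset -94 to 7 and the Stat5a stretch (plus strand, GRCm38.p6 chr11:100860384-100860482) from -100 to -2. The paired cores lay at offsets -22 and 0 in Stat5b and at -31 and -9 in Stat5a.
Stat5b stretch: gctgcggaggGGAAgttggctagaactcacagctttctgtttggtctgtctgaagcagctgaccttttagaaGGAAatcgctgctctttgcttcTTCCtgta
Stat5a stretch: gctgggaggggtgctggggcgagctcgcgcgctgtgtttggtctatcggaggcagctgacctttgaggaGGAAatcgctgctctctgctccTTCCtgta

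GGAA is common: 96.0% of 32851 RefSeq promoters of this length hold it on either strand, 84.6% hold 2 or more and 46.3% hold 4 or more. The member promoters held 2 to 4 each, so their count is not out of the ordinary. The Runx motif TGTGGT, found in 16.8% of promoters, occurred once, 17 bases after 1 of the Stat5a starts. The forkhead motif TGTTTAC (3.65% of promoters) and the Stat motif TTCNNNGAA (8.30%), each searched on both strands, had no match in the 5 member promoters. A match is a run of letters and not a bound site.

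Elf1 and Ets1 positions were denser in the windows than over the genome, apart from the 2 CD4 lists at Il2rb, whose intervals include the genome value, and those of Ets1 in Treg cells at Il2ra were the densest. At an FDR of at most 0.01 the 3 windows together held 54 Treg Elf1, 28 CD4 Elf1, 72 Treg Ets1, 30 CD4 Ets1 and 16 Treg Cbfb positions. Of the deposited positions inside the windows, 88.5% of Treg Elf1 (95% Clopper-Pearson interval 77.8 to 95.3), 50% of CD4 Elf1 (36.3 to 63.7), 48.6% of Treg Ets1 (40.4 to 57.0), 34.5% of CD4 Ets1 (24.6 to 45.4) and 72.7% of Treg Cbfb (49.8 to 89.3) passed this limit. Over the whole lists 84% of Treg Elf1, 22.2% of CD4 Elf1, 27.3% of Treg Ets1, 17.4% of CD4 Ets1 and 75.2% of Treg Cbfb positions passed. For both Ets1 lists and CD4 Elf1 the share in the windows was thus above that of the list beyond counting error. That error takes positions as independent, although 43 of the 72 Treg Ets1 positions lay in the Il2ra window alone. For Treg Elf1 and Treg Cbfb the share was not above that of the list.

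**Figure D1:**
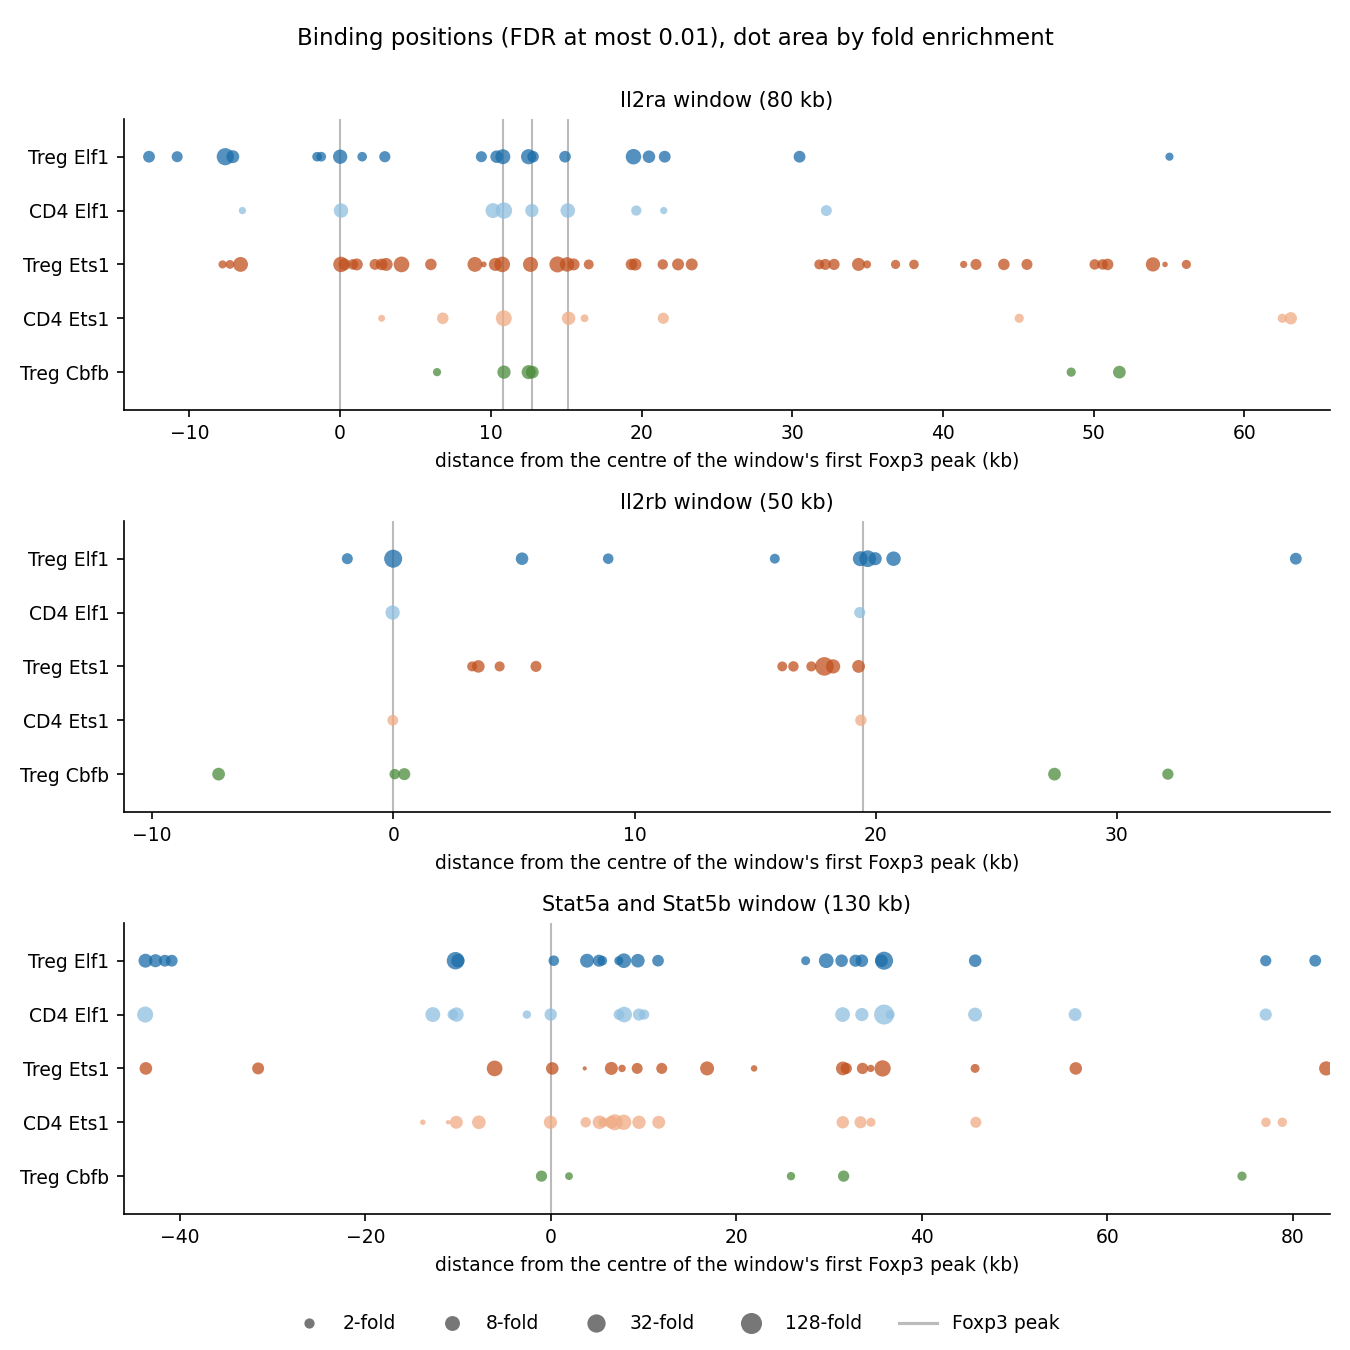
Each dot is a binding position with an FDR of at most 0.01 in the library named on the vertical axis, placed by its distance in kb from the first Foxp3 peak of the window, with dot area growing with fold enrichment. Grey lines are the 7 Foxp3 peaks. Treg Ets1 positions run through most of the Il2ra window, while those of the other lists are fewer.

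Per length, Treg Ets1 reached 5.38 positions per 10 kb at Il2ra (exact Poisson 95% interval 3.89 to 7.24), against 0.234 over the whole genome, a ratio of 23.0. At Il2rb it reached 2.00 (0.959 to 3.68) and at Stat5a and Stat5b 1.46 (0.880 to 2.28). CD4 Ets1 had 1.12 per 10 kb at Il2ra (0.514 to 2.14), 0.40 at Il2rb (0.048 to 1.45) and 1.46 at Stat5a and Stat5b (0.880 to 2.28), against 0.159 over the genome. The Stat5 window therefore had the same number of Ets1 positions in both cell types, 19 and 19, and the Il2ra window did not, with 43 in Treg and 9 in CD4.

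Elf1 was less uneven between windows. Treg Elf1 had 2.50 positions per 10 kb at Il2ra (1.53 to 3.86), 2.00 at Il2rb (0.959 to 3.68) and 1.85 at Stat5a and Stat5b (1.18 to 2.75), against 0.597 over the genome. CD4 Elf1 had 1.12 (0.514 to 2.14), 0.40 (0.048 to 1.45) and 1.31 (0.762 to 2.09), against 0.203. Treg Cbfb had 0.750 at Il2ra (0.275 to 1.63), 1.00 at Il2rb (0.325 to 2.33) and 0.385 at Stat5a and Stat5b (0.125 to 0.898). The Cbfb density over the genome, 0.460, lay inside all 3 intervals.

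**Figure D2:**
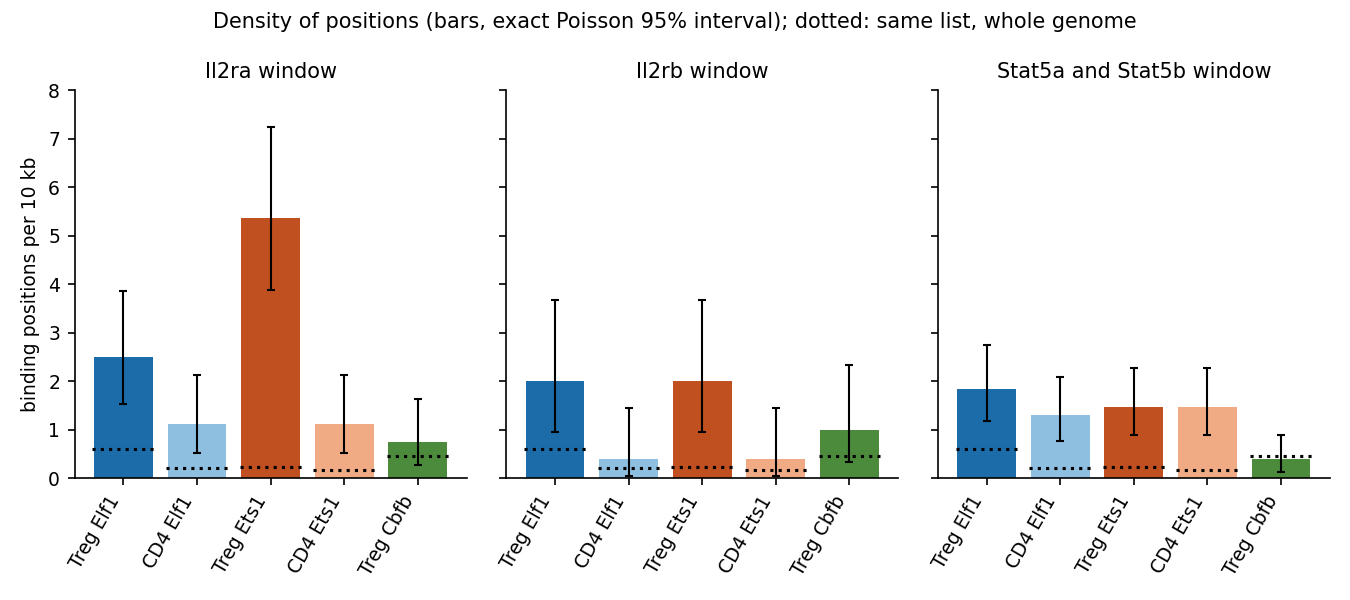
Bars give binding positions per 10 kb (FDR at most 0.01) in each window by library, with exact Poisson 95% intervals, and dotted lines the density of the same list over the whole genome. Treg Ets1 at Il2ra stands at 5.38 per 10 kb, above every other bar, and the Treg Cbfb intervals include the genome's 0.460.

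The windows were also set against all tiles of equal length, whatever genes the tiles hold. The tiles lie on a fixed grid, while the windows do not, so the shares are approximate. Of 32972 tiles of 80 kb, 9 (0.0273%) held as many Treg Ets1 positions as the Il2ra window. As many CD4 Ets1 positions were found in 2.15%, as many Treg Elf1 positions in 0.491% and as many CD4 Elf1 positions in 2.61%. For the Stat5 window the shares of 130 kb tiles were 0.774% for Treg Ets1, 0.774% for CD4 Ets1, 1.25% for Treg Elf1 and 1.00% for CD4 Elf1. For the Il2rb window they were 0.722% of 50 kb tiles for Treg Ets1, 2.40% for Treg Elf1, 16.0% for CD4 Ets1 and 22.2% for CD4 Elf1. The tiles are a description of the lists and not a test.

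Foxp3 peaks lay in all 3 windows: 4 at Il2ra, 2 at Il2rb and 1 at Stat5a and Stat5b. At least 4 Foxp3 peaks were found in 0.294% of 80 kb tiles, at least 2 in 1.01% of 50 kb tiles and at least 1 in 8.82% of 130 kb tiles. The Il2ra peaks spanned 11564233 to 11564433, 11575072 to 11575272, 11576986 to 11577186 and 11579348 to 11579548. The centres of the first and second lay 10839 bp apart, and the next gaps were 1914 and 2362 bp, so 3 of the 4 sat within a few kb of each other. The Il2rb peaks spanned 78306068 to 78306268 and 78325526 to 78325726, with centres 19458 bp apart. The peak in the Stat5 window spanned 100675924 to 100676124. Each interval was 200 bp wide and carried no score.

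Foxp3 peaks in the windows mostly coincided with ETS factors in both cell types, as Foxp3 peaks did over the genome. A position within 200 bp of the interval was present at 6 of the 7 peaks for Treg Elf1 (85.2% of all Foxp3 peaks), at 7 for CD4 Elf1 (88.9%), at 6 for Treg Ets1 (83.5%), at 5 for CD4 Ets1 (89%) and at 3 for Treg Cbfb (28.1%). With 7 peaks, none of these counts can be set apart from the share over all peaks. Elf1 and Ets1 of both cell types were all present at 3 of the 7 (66.1% of all peaks), and all 5 libraries at 1 (20.7%).

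At the first Il2ra peak, Treg Ets1 had its highest score of the window at 11564390, where enrichment was 23.3-fold (lower bound 6.46). Treg Elf1, also at its highest score of the window, had 14.3-fold (lower bound 5.38) at 11564338, and CD4 Elf1 14.9-fold (3.98) at 11564393. The 3 positions lay within 60 bp of the peak centre. CD4 Ets1 had only a weak deposited position there, 2.29-fold (0.751) at 11564280 with an FDR of 0.0999. The nearest Cbfb position lay 6433 bp from the centre. Elf1 was thus alike in the 2 libraries at this peak, with overlapping ranges between lower bound and estimate, while Ets1 was listed at the limit of 0.01 in Treg only.

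The second Il2ra peak was the only Foxp3 peak of the 3 windows with all 5 libraries. Enrichment was 18.8-fold (lower bound 4.87) for Treg Elf1 at 11575133, 35.9-fold (10.5) for CD4 Elf1 at 11575203, 24.6-fold (6.88) for Treg Ets1 at 11575092 and 28.7-fold (8.49) for CD4 Ets1 at 11575196. Treg Cbfb had 9.58-fold (2.00) at 11575207, its highest score of the window. Both CD4 libraries also had their highest score of the window here. For both factors the smaller estimate lay above the lower bound of the larger, so the cell types could not be set apart.

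At the third Il2ra peak Ets1 was again listed in Treg only. Treg Ets1 had 19.3-fold (5.22) at 11576967, and the nearest deposited CD4 Ets1 position of any FDR was that of the second peak, 1771 bp away. CD4 Elf1 had 9.39-fold (2.27) at 11577057 and Treg Elf1 5.24-fold (1.55) at 11577136, with a second position of 20.4-fold at 11576840. Cbfb had 7.84-fold (1.49) at 11577088 and, 120 bp from the Ets1 position, 13.1-fold (3.06) at 11576847, its highest fold of the window. At the fourth peak the 4 Elf1 and Ets1 libraries were present, with 5.38-fold (1.29) for Treg Elf1 at 11579258, 16.0-fold (4.33) for CD4 Elf1 at 11579440, 15.3-fold (3.98) for Treg Ets1 at 11579396 and 10.1-fold (2.67) for CD4 Ets1 at 11579495. Cbfb had a position at 11579545 with an FDR of 0.044, above the limit.

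**Figure D3:**
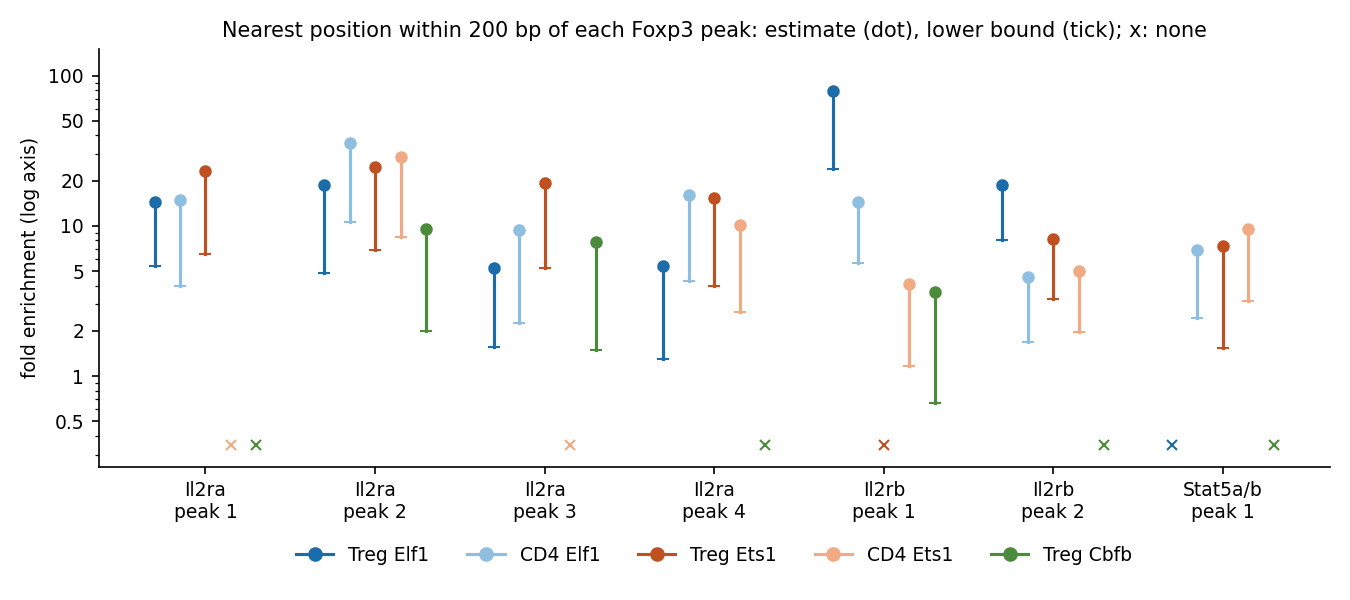
For each of the 7 Foxp3 peaks (horizontal axis), dots give the fold enrichment on a log axis of the nearest position within 200 bp in each library (FDR at most 0.01), with a line down to its lower bound, and crosses mark none. CD4 Ets1 has crosses at 2 of the 4 Il2ra peaks, and Treg Elf1 at the first Il2rb peak has the highest estimate, 79.1-fold.

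At the first Il2rb peak Treg Elf1 had 79.1-fold (lower bound 23.8) at 78306159, rank 370 of its list by score. CD4 Elf1 had 14.4-fold (5.66) at 78306135, so the Treg lower bound lay above the CD4 estimate. CD4 Ets1 had 4.13-fold (1.17) at 78306143 and Cbfb 3.66-fold (0.667) at 78306222. Treg Ets1 had a deposited position at 78306167, 1 bp from the centre, with 9.99-fold (2.34) and an FDR of 0.047, so it did not pass the limit.

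At the second Il2rb peak Treg Elf1 had 18.8-fold (8.01) at 78325532 and CD4 Elf1 4.60-fold (1.68) at 78325508, again with the Treg lower bound above the CD4 estimate. Treg Ets1 had 8.21-fold (3.25) at 78325461, its highest score of the window, and CD4 Ets1 4.99-fold (1.97) at 78325555, also its highest. No Cbfb position lay nearer than 7959 bp from the centre. At the FDR limit both CD4 libraries had 2 positions in the window, at the 2 Foxp3 peaks, while Treg Elf1 and Treg Ets1 had 10 each. Whatever the FDR, the window held 5 CD4 Elf1, 8 CD4 Ets1, 11 Treg Elf1 and 23 Treg Ets1 positions. The highest fold of Treg Ets1, 105.9 (19.2) at 78324042, came with a score of only 4.23, and no other library had a position within 200 bp of it that passed the limit.

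At Stat5a and Stat5b the strongest sites lay away from the Foxp3 peak. That peak had CD4 Ets1 at 9.47-fold (3.18) at 100675972, CD4 Elf1 at 6.86-fold (2.43) at 100676000 and Treg Ets1 at 7.32-fold (1.53) at 100676169. The nearest Treg Elf1 position, 3.84-fold (0.994) at 100676331, was 207 bp from the interval and so just outside the limit. The nearest Cbfb position was 918 bp from the interval. After positions and peaks at most 200 bp apart had been joined, the peak was part of 1 of 12 sites in the 3 windows with positions of at least 4 libraries. This site reached 4 only with the Treg Elf1 position at 100676331, which was joined by way of Treg Ets1 at 100676169.

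The highest Elf1 scores of the Stat5 window coincided in the 2 cell types. CD4 Elf1 had 230.3-fold (43.4) at 100711948 and Treg Elf1 80.7-fold (14.1) at 100711942, which are 6 bp apart. The same site held Treg Ets1 at 100711786, with 34.0-fold (5.41), its highest fold of the window, and no CD4 Ets1 position passed the limit at this site. The site was 35.9 kb from the Foxp3 peak. The 2 next CD4 Elf1 scores were 25.3-fold (10.3) at 100683920 and 12.3-fold (5.25) at 100721758, and Elf1 and Ets1 of both cell types were present at each.

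At 100683920 the highest scores of both Ets1 libraries also lay close by, but with unequal enrichment. CD4 Ets1 had 22.4-fold (9.21) at 100683868, rank 435 of its list, and Treg Ets1, 176 bp away at 100683692, 1.73-fold (0.554) with rank 1278. Treg Elf1 had 16.4-fold (6.27) at 100683886. At the site at 100721758 the values were 7.34-fold (2.99) for Treg Elf1, 2.44-fold (0.662) for Treg Ets1 and 4.45-fold (1.73) for CD4 Ets1. The 3 highest CD4 Elf1 positions lay 28028 and 9810 bp apart in mm9. In GRCm38.p6 the 2 Stat5b starts lie 28011 bp apart, and the Stat5a starts 9075 and 9903 bp from the nearer of them. These are distances within each build, no coordinate was converted, and no position was assigned to a start.

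Other sites with at least 4 libraries lay away from Foxp3 peaks. The only such site with all 5 was in the Stat5 window from 100707368 to 100707585, with 7.34-fold for Treg Elf1, 17.1-fold for CD4 Elf1, 11.6-fold for Treg Ets1, 7.04-fold for CD4 Ets1 and 4.85-fold for Cbfb. Its Cbfb position at 100707585 was the highest of that library in the window. Sites from 100685322 to 100685517 and from 100709405 to 100709621 had the 4 Elf1 and Ets1 libraries, at 4.28-fold to 10.8-fold and at 4.85-fold to 9.49-fold. At Il2ra the site from 11585743 to 11585873 had them at 1.66-fold to 5.71-fold. Lower bounds at this site were 0.932 for Treg Elf1, 0.222 for CD4 Elf1, 0.776 for Treg Ets1 and 1.35 for CD4 Ets1. In all, 6 of the 12 sites with at least 4 libraries were at a Foxp3 peak, and 6 of the 7 Foxp3 peaks were such a site. Neither count has a share over the genome or over all Foxp3 peaks beside it. They are therefore not read as particular to these windows.

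Most sites had a single library. Of 125 sites in the 3 windows, 91 had positions of 1 library, 14 of 2, 8 of 3, 10 of 4 and 2 of all 5. Sites were joined only inside the windows, so the site counts have no share over the genome beside them. They are not read as particular to these loci. Every position that passed the FDR limit was counted, also those with a lower bound under 1. Treg Ets1 at 100679666 even had an estimate under 1, 0.856-fold (lower bound 0.0548). The same factor was present in both cell types at 24, and at 30 when Elf1 in one cell type and Ets1 in the other also counted. At Il2ra 27 of 57 sites had Treg Ets1 alone and 8 Treg Elf1 alone. At Il2rb these numbers were 9 and 7 of 22, and at Stat5a and Stat5b 7 and 7 of 46. Cbfb was present at 15 sites, 11 of them with no other library, and at 3 of the 7 Foxp3 peaks. Of its 16 positions 2 were among the 10000 highest of the list, both at Foxp3 peaks of Il2ra.

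The Treg Ets1 positions at Il2ra were spread over 63952 bp, from 11556534 to 11620486. The median gap between neighbours was 953 bp and the longest 8462 bp. Only 9 of the 43 lay within 1 kb of the centre of a Foxp3 peak, and 24 lay beyond the last one. Their enrichment ran from 1.20-fold to 30.0-fold with a median of 5.19, against 3.71 over the list. Enrichment was under 6-fold at 30 (69.8%, against 73.3% of the list) and over 15-fold at 8. Treg Elf1 lay within 200 bp of 12 of the 43, a count with no share over the list beside it. CD4 Ets1 lay within 200 bp of 4. That is 9.30% (exact interval 2.59 to 22.1), which cannot be set apart from the 18.7% over the list. A deposited CD4 Ets1 position of any FDR lay within 1 kb of 24 of the 43. Flanks of the same length had 6 Treg Ets1 positions before the window and 1 after it.

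The excess of Treg over CD4 Ets1 at Il2ra was also found at equal list length. Treg libraries gave 82.7% of the Ets1 positions there (95% interval 69.7 to 91.8), against 59.5% over the genome. At equal list length, where the genome's share is 50%, it was 22 against 2 positions among the 20000 highest (91.7%, 73.0 to 99.0) and 9 against 1 among the 10000 highest (90%, 55.5 to 99.7). In the same window Treg Elf1 did not show it, with 20 against 9 positions (69.0%, 49.2 to 84.7) where the genome's share was 74.6%, and with 6 against 5 among the 20000 highest. At Il2rb Ets1 was at 10 against 2 (83.3%, 51.6 to 97.9), which does not stand apart from the genome's share, and at Stat5a and Stat5b at 19 against 19 (50%, 33.4 to 66.6). The Treg minus CD4 difference of 34 was matched in 1 of the 32972 tiles, on chromosome 1 from 69680001 to 69760000, with 46 against 2. The tiles lie on a fixed grid and the window does not. The grid tile on chromosome 2 from 11520001 to 11600000 had 34 against 8, a difference of 26. That was below the 33 of a further tile, on chromosome 1 from 69600001 to 69680000.

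Where both cell types had a position, both Elf1 pairs at Il2rb had the higher fold in Treg, while the Elf1 pairs of Stat5a and Stat5b did not stand apart from those of the genome. A counterpart within 200 bp was found for 19 of 54 Treg Elf1 positions (11.4% over the list), 18 of 28 CD4 Elf1 (32.5%), 13 of 72 Treg Ets1 (18.7%) and 13 of 30 CD4 Ets1 (27.7%). As shares these are 35.2% (exact 95% interval 22.7 to 49.4), 64.3% (44.1 to 81.4), 18.1% (9.98 to 28.9) and 43.3% (25.5 to 62.6). Both Elf1 shares were above those of their lists beyond counting error, and neither Ets1 share could be set apart from its list. A counterpart within 200 bp is likelier where positions lie denser, as Elf1 positions mostly did in the windows. No share at equal density was computed, so the higher Elf1 shares are not read as particular to these loci. At Stat5a and Stat5b 2 Treg Elf1 positions share the CD4 position at 100665839. Enrichment in Treg relative to CD4, as the log2 of their ratio, had a median of -0.57 over the 19 Elf1 pairs (SD over pairs 1.44), against -0.17 over all 17926 pairs (quartiles -0.81 and 0.50). Both Il2rb pairs were higher in Treg, at 2.45 and 2.03, above 98.1% and 96.3% of all pairs. By score the first pair went the other way, at 39.6 in Treg against 43.9 in CD4. The second was at 26.2 against 16.3. At Stat5a and Stat5b 9 of 11 pairs were lower in Treg, with a median of -0.62. That is 81.8% (exact 95% interval 48.2 to 97.7), against 57.7% of all Elf1 pairs, and 6 of the 11 lay between the quartiles of all pairs. At Il2ra the 4 pairs at Foxp3 peaks ran from -1.57 to -0.06 and the other 2 were at 1.79 and 2.76. By score these 2 went the other way, at 2.78 in Treg against 6.36 in CD4 and at 8.12 against 15.5. The pair at the third peak also changed direction by score, at 6.65 against 4.85, and the remaining pairs at Foxp3 peaks did not. At the third peak the pair took the Treg position at 11577136. The other Treg position there, 20.4-fold at 11576840, was more than 200 bp from the CD4 position of 9.39-fold and was not paired. The sign at that peak thus depends on which Treg position is taken.

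For Ets1 the 13 pairs had a median log2 ratio of -0.36 (SD over pairs 1.39), against -0.44 over all 11551 pairs (quartiles -1.11 and 0.18). The 4 pairs at Il2ra ran from -0.36 to 1.80 and the single pair at Il2rb was 0.72, all above the median of all pairs. At Stat5a and Stat5b the 8 pairs ran from -3.69 to 0.72, with the lowest at the site near 100683868, where 0.822% of all pairs were lower. The Ets1 median changed sign with 2 of the other settings: it was 0.024 with all deposited positions and 0.38 when pairs had to lie within 100 bp. Fold values are coarse, since the 61761 Treg Ets1 positions take only 429 distinct values, and they compare 2 libraries rather than 2 cell types.

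**Figure D4:**
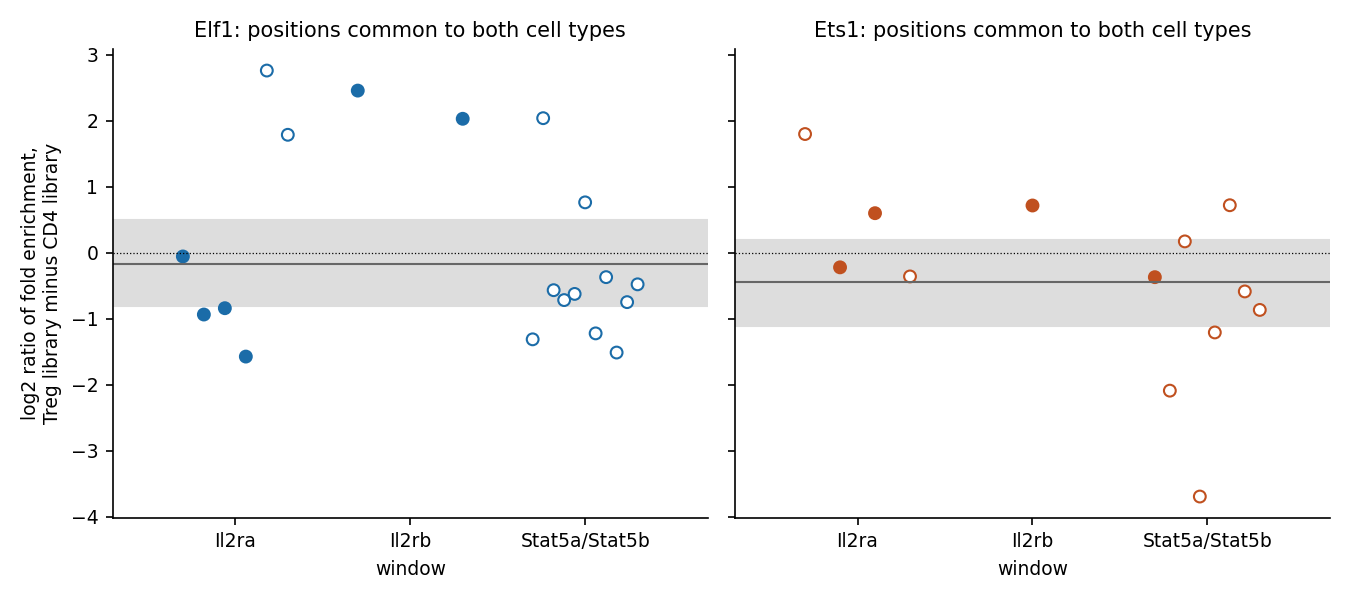
Each circle is a position found in both cell types within 200 bp, with the log2 of Treg over CD4 enrichment on the vertical axis, by window, and filled circles lie at Foxp3 peaks. The grey band and line give the quartiles and median over all pairs of the genome. Both Il2rb Elf1 pairs lie above the band, at 2.45 and 2.03.

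Some positions were one-sided: within 1 kb the other cell type had none of that factor, whatever the FDR. For Elf1 these were 19 of 54 Treg positions (35.2%, 22.7 to 49.4, against 65% over the list) and 4 of 28 CD4 positions (14.3%, 4.03 to 32.7, against 49.4%). For Ets1 they were 24 of 72 Treg positions (33.3%, 22.7 to 45.4, against 51.7%) and 2 of 30 CD4 positions (6.67%, 0.818 to 22.1, against 39.2%). One-sided positions were thus a smaller share in the windows than over each list. This share also falls where positions of the other cell type lie denser, as they mostly did in the windows. No share at equal density was computed, so the lower shares are not read as shared binding particular to these loci. The 24 Treg Ets1 positions were 19 of the 43 at Il2ra, 5 of the 10 at Il2rb and 0 of the 19 at Stat5a and Stat5b. In the last window, which held 56 deposited CD4 Ets1 positions, all 19 had a CD4 counterpart of some FDR within 1 kb.

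By score, the highest Treg-only Ets1 position was 11576967, at the third Il2ra peak (19.3-fold). The next 2, at 11596126 (3.14-fold, lower bound 0.812) and 11608376 (5.19-fold, 1.34), lay 16678 and 28928 bp from the nearest Foxp3 centre. The Treg-only Elf1 positions with the highest scores were also at Il2ra, at 11556716 (51.4-fold, 8.50), 11562804 (2.89-fold, 0.882) and 11551655 (5.71-fold, 0.932). The first of these had a Treg Ets1 position 182 bp away. The 4 CD4-only Elf1 positions lay at 100673431 (2.13-fold, 0.492), at 11596599 (4.31-fold, 1.11), at 100732544 (8.28-fold, 0.785) and at 100663291 (18.2-fold, 2.60). Of these, 11596599 and 100732544 had a Treg Ets1 position within 71 bp. The 2 CD4-only Ets1 positions lay at 100753118 (2.83-fold, 0.991), with Elf1 of both cell types within 22 bp, and at 100668254 (10.9-fold, 1.45).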

How the data were processed

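The aligner was Bowtie 0.12.7 and the build mm9, per the submitters' processing notes. The authors deposited 1 list of Foxp3 intervals from combined replicates, per the labels, and for 5 of the 11 libraries a list of single-base positions. Per the file headers, each position has a score, an E-value, an FDR (a q-value) and the ratio of enrichment, or fold, as a lower bound and a maximum likelihood estimate. No caller, control or read depth is named (not given in the sources used here). A CD4 Cbfb library of low quality, per the labels, and the inputs were not analysed here.

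The members, lists and tests were chosen with earlier results of these data known. Counts per window took an FDR limit of 0.01. Named places were every Foxp3 peak with its nearest positions, the highest score per window and library, sites with at least 4 of 5 libraries, and the 3 highest one-sided positions per factor and cell type. The CD4 Elf1 position at 100663291, also one-sided, was named after its values were seen, to complete that group. Tiles, flanks and distances between sites were added after the values had been seen. Pathway genes outside the windows could not be placed without an mm9 annotation. Functions were tested on simulated data. Python 3.11.15, numpy 2.4.6, pandas 2.3.3, scipy 1.17.1, matplotlib 3.10.9 and Biopython 1.88 were used. Alternatives were an FDR of at most 0.001, all positions, the 10000 or 20000 highest scores, distances of 100 and 500 bp, windows wider by 20 kb, and other measures of rank or ratio.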

Additional observations from a re-analysis of the deposited data

How the results depend on the processing

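Counts followed the length of the lists. With an FDR of at most 0.001 the 3 windows held 42 Treg Ets1, 16 CD4 Ets1 and 9 Treg Cbfb positions, and with all deposited positions 56 CD4 Elf1, 148 Treg Ets1 and 87 CD4 Ets1. The 10000 highest scores left 11 Treg Elf1, 13 CD4 Elf1, 20 Treg Ets1, 11 CD4 Ets1 and 2 Treg Cbfb positions, and the 20000 highest left 16, 17, 40, 16 and 4. Windows wider by 20 kb held 26 Cbfb positions, and 8 Foxp3 peaks in place of 7. Sites numbered 78 at an FDR of at most 0.001, 243 with all positions, and 29 and 50 with the 10000 and 20000 highest. Common Elf1 positions fell to 10 among the 10000 highest. Common Ets1 positions, 13 as reported, were 8 at an FDR of at most 0.001, 32 with all positions, 6 and 8 among the 10000 and 20000 highest, 8 within 100 bp and 20 within 500 bp. The Ets1 median log2 ratio turned positive with all positions (0.024) and within 100 bp (0.385), and the cause was not tested. The other 60 of 90 values kept their direction and stayed within 1.5 times a count or 1 SD over pairs, among them all counts of Foxp3 peaks with a factor. By fold in place of score, the top position was the same in 9 of 15 cases. No paired analysis was possible because each analysed group had 1 library, and the Foxp3 replicates were pooled by the authors.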
